A study of Caenorhabditis elegans with 92 samples.

Results

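Genes with abundant RNA in Caenorhabditis elegans embryos and almost none in larvae of a kle-2 mutant strain were collected by a rule on RNA levels. The larvae were all of a stage labelled L2-L3. No other larval stage, no adults and no wild-type larvae had RNA libraries here, so the name embryo-only refers to these larvae alone. A gene was counted as embryo-only if it lay under 1 FPKM in all 6 larval libraries and had a median of at least 30 FPKM over the 5 embryo libraries. FPKM counts sequenced fragments relative to the length of the transcript and to the size of the library. In total, 96 of the 20376 genes measured met the rule. They were 1.99% of the 4817 genes with an embryo median of at least 30 FPKM. Because the rule used the levels in both stages, the gap between larvae and embryos is given as a description and was not tested. The values of the larvae and of the embryos were also normalized separately. Values of single libraries are listed by replicate number, 1 to 3 in each larval group and 1 to 5 in embryos.

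The series mapped condensin complexes by ChIP-seq and measured mRNA by RNA-seq of whole worms. Only the 11 mRNA libraries are used here. Condensins are ring-shaped complexes that compact chromosomes, and KLE-2 is a subunit of condensin II. The larval libraries asked how loss of this subunit changes gene expression. Larvae came from strain VC768, in which kle-2(ok1151) on chromosome III is kept over the balancer hT2, a rearrangement of I and III that carries bli-4(e937), let-?(q782) and the GFP marker qIs48. Homozygous kle-2 larvae (3 libraries) lack the balancer and are GFP-negative. Heterozygous larvae (3 libraries) carry both kle-2(ok1151) and the balancer and are GFP-positive, so the mutation and the balancer cannot be told apart in this comparison. Both were hand-picked at a stage labelled L2-L3 from cultures synchronized as starved first-stage larvae. Homozygotes had heterozygous mothers, who could supply maternal KLE-2. Embryos (5 libraries) were wild-type N2 of mixed stages, isolated by bleaching gravid adults. Embryos and larvae therefore differ in strain and in allele as well as in stage.

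Early embryos run on RNA loaded by the mother until the zygotic genome is switched on, lineage by lineage. The first zygotic products include transcription factors that specify tissues, signalling ligands, and parts of the protein degradation machinery that clears maternal proteins. Later the embryo builds an epidermis, secretes its first cuticle and hatches. Many of these genes are shut off again before larval life.

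The relative sequencing depth could be recovered from the smallest steps of the values, not the number of reads. It lay between 0.695 and 1.20 in homozygous larvae and between 0.953 and 1.37 in heterozygous larvae, each relative to heterozygous replicate 1. In embryos it lay between 0.865 and 2.08 relative to embryo replicate 1. The 16 housekeeping genes measured were above 0 in every library, with a lowest larval value of 13.8 FPKM. The 14 larval tissue markers (muscle, gut, cuticle and neuron genes) were all present in larvae, with a lowest value of 5.99 FPKM. Their summed level was 11863, 12108 and 10069 FPKM in homozygous larvae, 10961, 11342 and 7728 FPKM in heterozygous larvae, and 1987, 2859, 2682, 3402 and 1146 FPKM in embryo replicates 1 to 5. Embryo replicate 5 was the lowest in 10 of these 14 markers and stood apart from the other embryo libraries. These are bulk samples, in which fewer cells of a type and less RNA per cell cannot be told apart.

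Embryo-only genes covered a wide range of embryo levels while their larval levels were near the limit of measurement. The highest larval value of a gene had a median of 0.378 FPKM over the 96 genes, and 59 genes stayed under 0.5 FPKM. Of the 576 larval values, 232 (40.3%) were listed at 0, and 7 genes were listed at 0 in all 6 larval libraries. The embryo medians ran from 31.7 to 1157 FPKM with a middle value of 64.1 FPKM, against a middle value of 67.2 FPKM over the other 4721 abundant embryo genes. The share at 100 FPKM or more was 33.3% (32 genes), against 32.6% of the other abundant embryo genes. The middle of the embryo levels was thus close to that of the rest. At the top, 4 genes had medians of at least 500 FPKM, and at the bottom 39 lay under 50 FPKM. By contrast, 2242 (46.5%) of the 4817 abundant genes were at 30 FPKM or more in every larval library.

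**Figure D1:**
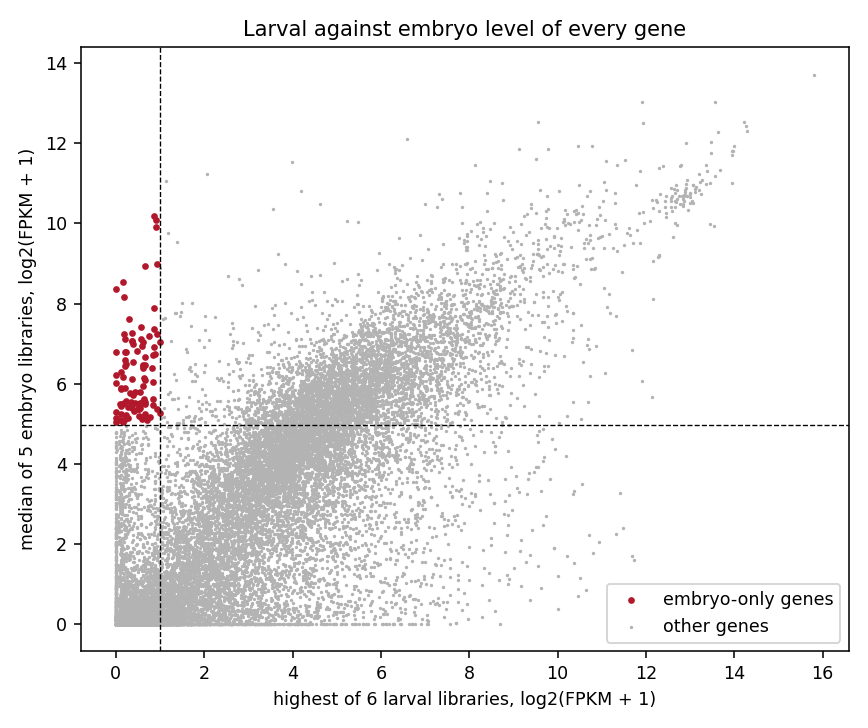
Larval and embryo RNA level of every gene. The x axis is the highest of 6 larval libraries and the y axis the median of 5 embryo libraries, both as log2(FPKM + 1); dashed lines mark 1 FPKM in larvae and 30 FPKM in embryos. The 96 embryo-only genes (red) fill the upper left corner, and the other genes (grey) lie mostly along a rising band.

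The thresholds cut through a continuous range of levels. Just inside the larval threshold, the highest larval values were 0.990 FPKM for Y39G10AL.1, 0.990 FPKM for C44B9.3 and 0.914 FPKM for bath-10. Just outside it were C01G6.3 at 1.01 FPKM, hmg-6 at 1.05 FPKM and zip-7 at 1.09 FPKM. C01G6.3 had an embryo median of 476 FPKM and zip-7 of 196 FPKM, so abundant embryo transcripts sat on both sides of the line. At the embryo threshold, C29G2.3, T16G12.8 and aptf-4 had medians of 31.7, 32.1 and 32.9 FPKM and were inside. The genes dbd-6, C15C8.8 and F56A8.8, with 29.7, 29.5 and 28.5 FPKM, were outside.

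Of the 96 genes, 48 have a gene name and 48 are known only by a sequence name. By the role that the name stands for, the named genes fell into 12 transcription factors, 13 parts of ubiquitin ligases, 12 secreted or matrix proteins, 6 genes named for early or patterned embryonic transcripts, and 5 others. This grouping was made after the values were seen. Of the lists of known pathways, the Skp1-related list held 8 embryo-only genes of 20 measured. The list of Notch ligands and receptors held 3 of 11, and the list of T-box factors, which leaves out sea-1, 2 of 21. Lists of endoderm and mesoderm specification (14 measured), sex determination (9), proneural factors (10), cell death (9) and embryonic apical matrix (12) held 1 each. None of the genes measured was embryo-only among 12 maternal CCCH zinc finger proteins, 14 other maternal RNA regulators, 12 P granule genes, 22 eggshell genes, 6 REF-1 family genes, 11 epidermal fate genes or 7 cyclins. Of the 12 maternal CCCH genes, 3 stayed under 1 FPKM in larvae and 9 reached 30 FPKM in embryos, with no gene meeting both. In the REF-1 family 5 of 6 stayed under 1 FPKM in larvae, but 0 reached 30 FPKM in embryos. Only 1 of 12 P granule genes and 4 of 22 eggshell genes reached it. Of the other maternal RNA regulators, epidermal fate genes and cyclins, 6, 8 and 5 reached it, and 0 stayed under 1 FPKM in larvae. Over all genes 96 of 20376 met the rule, so a 0 in such short lists is no result about them.

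**Figure D2:**
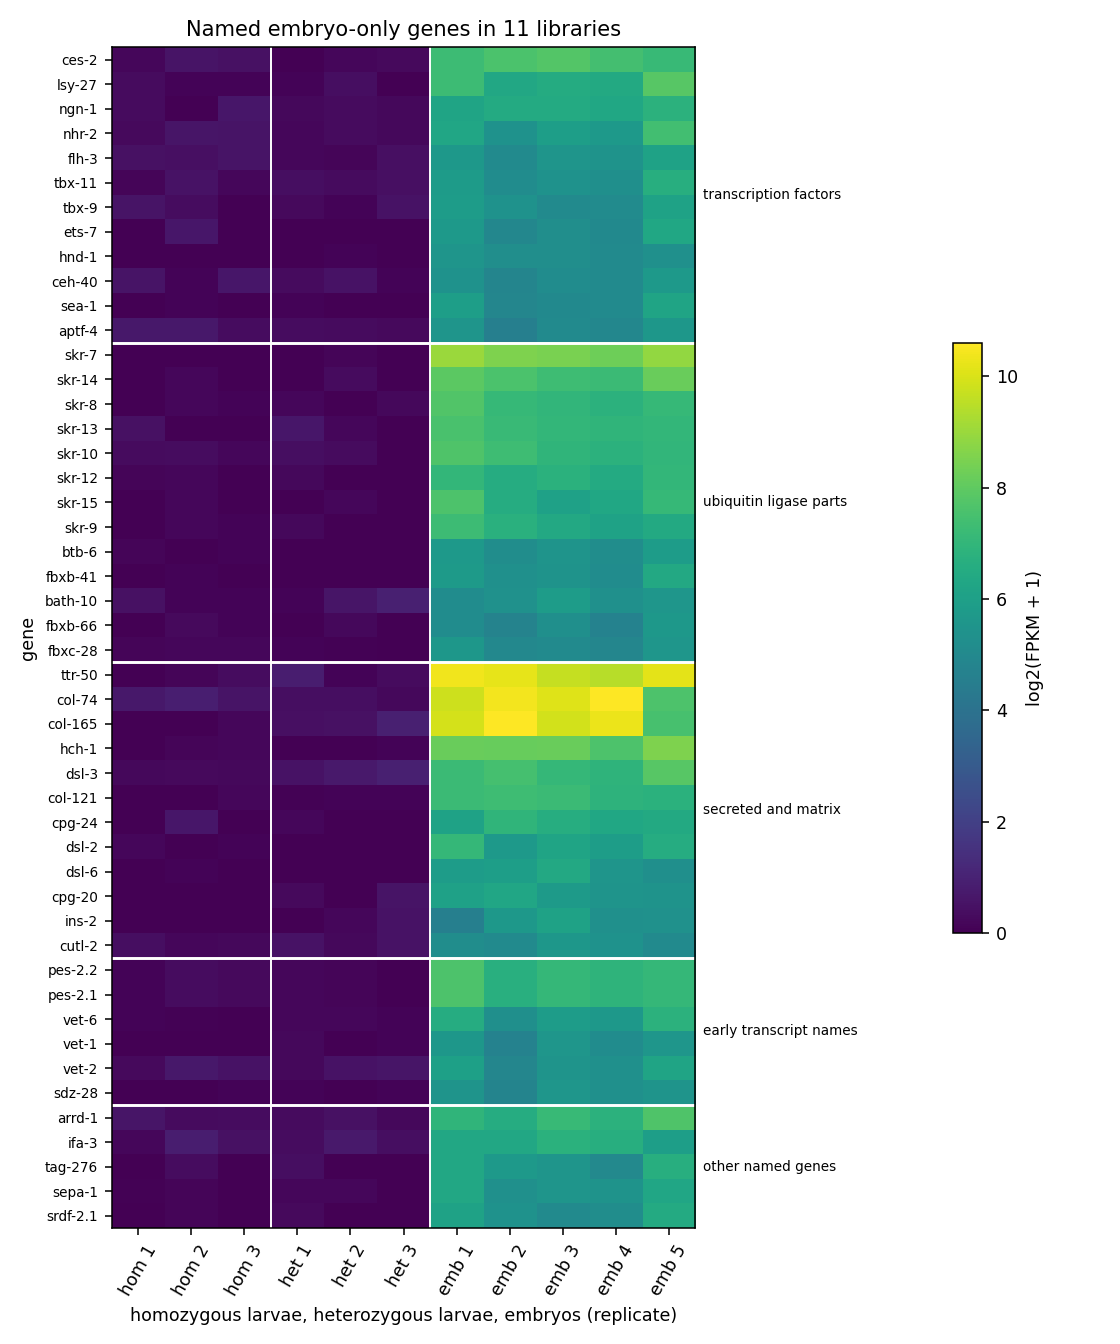
RNA level of the 48 named embryo-only genes in each library. Columns are 3 homozygous larval, 3 heterozygous larval and 5 embryo libraries, rows are genes grouped by role, and colour is log2(FPKM + 1). All larval cells are near 0, and col-74 and col-165 drop in embryo library 5 while most transcription factors are brightest there.

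The transcription factors came from several families. ces-2, a bZIP factor that specifies the death of sister cells of particular neurons, was the most abundant of the 12. ces-2 had 0.131, 0.492 and 0.378 FPKM in homozygous larvae, 0, 0.133 and 0.191 FPKM in heterozygous larvae, and 155, 193, 217, 170.4 and 140.1 FPKM in embryos. Its 5 embryo libraries lay within a narrow range, and replicate 5 was the lowest, unlike most of the other factors. ngn-1 encodes the neurogenin homolog, a bHLH factor of neuronal precursors. ngn-1 had 0.249, 0 and 0.578 FPKM in homozygous larvae, 0.171, 0.254 and 0.182 FPKM in heterozygous larvae, and 71.5, 89.4, 87.7, 79.2 and 112 FPKM in embryos. hnd-1, the Hand bHLH factor of the mesoderm, was listed at 0 in 5 of 6 larval libraries and had 45.9, 36.5, 36.9, 32.6 and 39.1 FPKM in embryos. These 3 genes varied little between embryo libraries.

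The T-box factors tbx-9 and tbx-11 belong to a family of regulators of embryonic patterning and morphogenesis. tbx-11 had 0.118, 0.444 and 0.137 FPKM in homozygous larvae, 0.325, 0.240 and 0.345 FPKM in heterozygous larvae, and 55.1, 34.7, 41.6, 37.5 and 98.95 FPKM in embryos. tbx-9 had 0.455, 0.285 and 0 FPKM in homozygous larvae, 0.208, 0.0772 and 0.443 FPKM in heterozygous larvae, and 58.01, 41.2, 33.05, 34.1 and 67.4 FPKM in embryos. For both, embryo replicate 5 was the highest and replicate 1 the next. tbx-8, a close relative that acts together with tbx-9, missed the larval threshold with a highest larval value of 1.24 FPKM and an embryo median of 31.8 FPKM. sea-1, a T-box factor that counts autosomes in sex determination, had at most 0.0688 FPKM in larvae and 59.96, 28.3, 31.7, 33.2 and 73.03 FPKM in embryos. Of the 21 genes in the T-box list, which leaves out sea-1, 17 stayed under 1 FPKM in larvae and 4 reached a median of 30 FPKM in embryos.

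The other factors came from families with no second embryo-only gene. nhr-2 had 0.193, 0.525 and 0.485 FPKM in homozygous larvae, 0.133, 0.229 and 0.188 FPKM in heterozygous larvae, and 76.04, 40.9, 59.9, 52.4 and 166 FPKM in embryos. nhr-2 encodes a nuclear receptor expressed in early embryos, and its replicate 5 value lay apart from the other 4 embryo libraries. lsy-27, a zinc finger protein needed for left-right differences of a pair of taste neurons, had 155, 82.2, 92.3, 85.7 and 231 FPKM in embryos. flh-3 encodes a FLYWCH zinc finger protein, and its relatives repress microRNA genes in embryos. It had 48.8, 33.2, 44.8, 42.5 and 67.2 FPKM in embryos. ets-7 (ETS domain), ceh-40 (a PBC-class homeodomain protein) and aptf-4 (AP-2 family) had larval maxima of 0.573, 0.553 and 0.628 FPKM and embryo medians of 36.9, 34.7 and 32.9 FPKM.

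The largest family was that of the Skp1-related genes. Skp1 is the adaptor that joins F-box proteins, which choose the substrate, to the cullin core of SCF ubiquitin ligases, and the worm genome has an expanded set. In total, 8 of the 20 skr genes measured were embryo-only. skr-7 was the highest. skr-7 had 0, 0 and 0 FPKM in homozygous larvae, 0, 0.115 and 0 FPKM in heterozygous larvae, and 521, 372, 349.5, 311 and 471 FPKM in embryos. skr-14 had 0, 0.140 and 0 FPKM in homozygous larvae, 0, 0.227 and 0 FPKM in heterozygous larvae, and 242, 194, 159, 151 and 291 FPKM in embryos. skr-8 had 0, 0.141 and 0.0650 FPKM in homozygous larvae, 0.154, 0 and 0.164 FPKM in heterozygous larvae, and 213, 139, 124, 111 and 138 FPKM in embryos. Replicate 1 or 5 was the highest and replicate 4 the lowest for these 3 genes.

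The other 5 embryo-only skr genes lay somewhat lower. skr-13 had 190.3, 146, 129, 123 and 128 FPKM in embryos. skr-10 had 206, 157, 122, 112 and 127 FPKM in embryos, and skr-12 had 128, 95.01, 109, 88.4 and 129 FPKM in embryos. For all of these the highest larval value was between 0.115 and 0.543 FPKM, which is the range over the 8 genes. skr-15 had 200.3, 94.5, 66.6, 79.7 and 137 FPKM in embryos, the widest ratio of highest to lowest library among the 8 genes. skr-9 had 153, 106, 83.4, 67.8 and 86.3 FPKM in embryos. Replicate 4 was the lowest library for 7 of the 8 genes and replicate 1 the highest for 6.

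The remaining skr genes showed other patterns. Another 8 skr genes also had embryo medians of at least 30 FPKM but were expressed in larvae. Among them skr-1, the main Skp1 homolog, had a highest larval value of 572 FPKM and an embryo median of 1019 FPKM. skr-4 and skr-5 were higher in the larval than in the embryo libraries, and skr-6 was listed at 0 throughout. The embryo-only skr genes therefore stood in a gap, with no skr gene at an intermediate larval level between them and skr-17. Because these genes are close copies of each other, the authors' counting may divide reads between them, and the single values are uncertain.

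**Figure D3:**
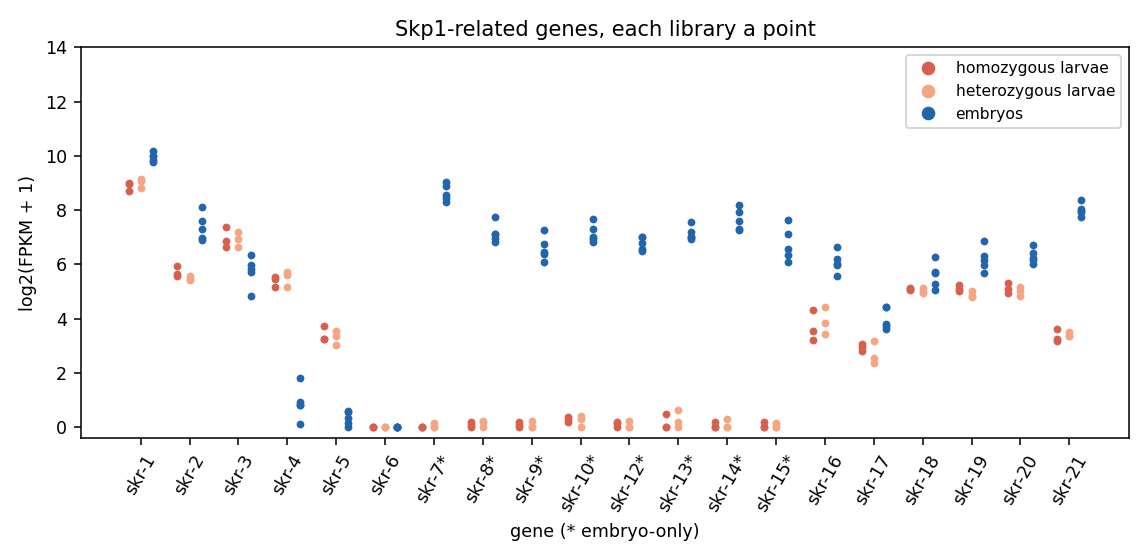
Level of every measured Skp1-related gene. Each point is a library, in log2(FPKM + 1), for homozygous larvae (red), heterozygous larvae (orange) and embryos (blue); asterisks mark embryo-only genes. The 8 marked genes lie near 0 in larvae and between 66.6 and 521 FPKM in embryos, whereas skr-1 is high in both stages.

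Other parts of ubiquitin ligases were scattered over large families. fbxb-41, fbxb-66 and fbxc-28 encode F-box proteins, the substrate-binding partners of Skp1. fbxb-41 had 54.6, 39.6, 42.2, 35.1 and 84.7 FPKM in embryos. fbxb-66 and fbxc-28 had embryo medians of 34.3 and 33.1 FPKM. Of the 110 fbxb genes measured, 106 stayed under 1 FPKM in larvae, but only these 2 reached the embryo threshold. btb-6 and bath-10 encode BTB domain proteins, a class that includes adaptors of cullin 3 ligases. btb-6 had 0.105, 0 and 0.0607 FPKM in homozygous larvae, 0, 0 and 0 FPKM in heterozygous larvae, and 51.6, 35.3, 44.3, 36.02 and 56.9 FPKM in embryos. bath-10 had 34.7, 40.1, 57.02, 38.5 and 46.1 FPKM in embryos, with replicate 3 the highest.

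The secreted and matrix proteins held the most abundant embryo-only transcripts. ttr-50 had 0, 0.106 and 0.294 FPKM in homozygous larvae, 0.813, 0.0860 and 0.247 FPKM in heterozygous larvae, and 1340.4, 1186, 807, 709 and 1157 FPKM in embryos. ttr-50 encodes a transthyretin-like secreted protein. col-74 had 0.585, 0.880 and 0.474 FPKM in homozygous larvae, 0.321, 0.297 and 0.171 FPKM in heterozygous larvae, and 878, 1368, 1086, 1559 and 198 FPKM in embryos. col-165 had 0, 0 and 0.142 FPKM in homozygous larvae, 0.336, 0.373 and 0.891 FPKM in heterozygous larvae, and 967, 1559, 939, 1270.1 and 183 FPKM in embryos. Both collagen genes were low in embryo replicate 5 (198 and 183 FPKM) and at least 878 FPKM in each of the other 4 embryo libraries. col-121, also a collagen gene, had 149, 157, 149, 115 and 109.9 FPKM in embryos and did not show that drop.

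Most collagen genes did not meet the rule, as was the case over all genes. Of 158 col genes measured, 3 met it, against 96 of all 20376 genes. Another 25 col genes had an embryo median of at least 30 FPKM. Of all genes at that embryo level, 1.99% were embryo-only, so the collagens were not short of embryo-only genes. Of those 25, 24 were lowest in embryo replicate 5, with a median difference of -3.37 (log2) between replicate 5 and the mean of the other libraries. The same differences were -2.67 for col-74, -2.74 for col-165 and -0.44 for col-121. The 25 collagens had failed the rule by their larval level, and the median of their highest larval value was 141 FPKM. Thus col-74 and col-165 followed the embryo libraries as other collagens did. That they stayed under 1 FPKM in these larvae is set by the rule.

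hch-1 encodes the hatching enzyme, a metalloprotease that helps to digest the eggshell. hch-1 had 0, 0.112 and 0.138 FPKM in homozygous larvae, 0, 0 and 0.0871 FPKM in heterozygous larvae, and 288, 279, 290.2, 199.9 and 376 FPKM in embryos. It was the highest in embryo replicate 5, the library in which the collagens were lowest. Among other matrix genes, cpg-24 and cpg-20, which encode chondroitin proteoglycans, had embryo medians of 85.1 and 54.3 FPKM. cutl-2, a cuticlin-like gene, had a median of 35.6 FPKM. ins-2 encodes an insulin-related peptide and had 22.9, 49.8, 67.8, 38.6 and 40.2 FPKM in embryos, with the lowest value in replicate 1.

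The dsl genes encode secreted or membrane proteins with the DSL domain found in Notch ligands. Of 7 dsl genes measured, 3 were embryo-only. dsl-3 had 0.156, 0.196 and 0.181 FPKM in homozygous larvae, 0.429, 0.635 and 0.911 FPKM in heterozygous larvae, and 150.4, 178, 134, 119 and 227 FPKM in embryos. dsl-2 had 0.126, 0 and 0.0727 FPKM in homozygous larvae, 0, 0 and 0 FPKM in heterozygous larvae, and 131, 51.4, 71.4, 58.5 and 94.3 FPKM in embryos. dsl-6 had 0, 0.0819 and 0 FPKM in homozygous larvae, 0, 0 and 0 FPKM in heterozygous larvae, and 57.4, 60.3, 82.9, 45.7 and 37.8 FPKM in embryos. The highest library differed between the 3 genes, replicate 5 for dsl-3, 1 for dsl-2 and 3 for dsl-6. The classical embryonic ligands apx-1 and lag-2 did not meet the rule, with larval maxima of 2.71 and 2.37 FPKM and embryo medians of 22.6 and 5.82 FPKM.

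The genes named for early transcription shared their lowest embryo library but not their highest. All 3 vet genes measured were embryo-only. vet-6 had 93.4, 37.7, 57.99, 48.9 and 111 FPKM in embryos. vet-2 had 63.6, 28.05, 44.2, 39.6 and 72.2 FPKM in embryos. vet-1 was listed at 0 in all 3 homozygous larval libraries and had 48.5, 24.7, 46.2, 34.7 and 46.6 FPKM in embryos. sdz-28, from a set of zygotic genes that depend on the maternal factor SKN-1, had a median of 43.7 FPKM. pes-2.1 and pes-2.2 carried identical values in all 11 libraries, so they cannot be told apart, although both are counted among the 96. Their values were 202, 102, 133, 119 and 133 FPKM in embryos. Embryo replicate 2 was the lowest library for all 6 of these genes, 2 of which have the same values, against 27.1% of the 96 genes and 28.3% of the other abundant genes. Replicate 1 was the highest for 3, replicate 5 for 2 and replicate 3 for 1.

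The 5 remaining named genes had no role in common. arrd-1 had 0.498, 0.234 and 0.288 FPKM in homozygous larvae, 0.257, 0.380 and 0.182 FPKM in heterozygous larvae, and 122, 93.2, 141, 112 and 203 FPKM in embryos. arrd-1 encodes an arrestin domain protein. ifa-3, a cytoplasmic intermediate filament protein, had 82.3, 80.2, 109, 98.1 and 59.97 FPKM in embryos and was lowest in replicate 5. sepa-1 encodes an autophagy receptor that helps to remove P granule proteins from somatic cells of the embryo. It had 81.00, 39.3, 45.1, 42.9 and 76.1 FPKM in embryos. tag-276 and srdf-2.1 had medians of 51.5 and 41.7 FPKM, and both were highest in replicate 5.

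The 48 genes without a gene name had embryo medians between 31.7 and 509.7 FPKM, so unnamed genes also reached high levels. F46E10.2 had 962, 797, 509.7, 434 and 477 FPKM in embryos. R11.4 had 622, 489, 369.6, 265 and 549.8 FPKM in embryos. C03C10.5 was listed at 0 in all 6 larval libraries and had 283, 338, 243, 327 and 357 FPKM in embryos. It was by far the most abundant of the 7 genes with no larval signal. C35E7.5 had 262, 178, 235, 179.7 and 362 FPKM in embryos, and C08F1.10 had 153, 148, 181, 145 and 254 FPKM in embryos. The other 6 genes at 0 in all larval libraries were Y45F10B.59, F43G6.10, C17E7.12, Y27F2A.8, B0563.8 and C29G2.3, with embryo medians between 31.7 and 109 FPKM.

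Some unnamed genes varied widely between embryo libraries. C29G2.3 had 12.99, 52.7, 31.7, 44.7 and 2.35 FPKM in embryos, the widest ratio of highest to lowest library (22.5) among the 96 genes. C10F3.7 had 55.8, 205, 164.9, 177 and 17.9 FPKM in embryos. K01D12.1 had 35.1, 35.7, 62.1, 23.6 and 7.14 FPKM in embryos, and W07G4.1 had 55.1, 130.0, 67.3, 73.8 and 19.4 FPKM in embryos. In all 4, replicate 5 was the lowest, as for the collagens. At the other end, T16G12.8 had 36.3, 30.97, 32.1, 28.6 and 35.03 FPKM in embryos, the narrowest ratio (1.27). Y41D4B.6 had 92.4, 85.5, 96.9, 89.1 and 74.7 FPKM in embryos.

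Across the embryo libraries, embryo-only genes varied slightly more than other abundant embryo genes. The SD of log2(FPKM + 1) over the 5 libraries had a median of 0.40 over embryo-only genes and 0.31 over the other 4721 abundant genes. With each library centred on its median over abundant genes, these medians were 0.37 and 0.30. The ratio of the highest to the lowest library had a median of 2.03 over embryo-only genes and 1.74 over the rest. A ratio above 4 was found in 7 embryo-only genes (7.29%) and in 8.73% of the rest. These are descriptions across genes, which are not independent of each other, and no test was made.

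Replicate 5 was most often the highest library and replicate 4 most often the lowest. Replicate 5 was the highest for 46 of the 96 genes (47.9%), against 37.8% of the other abundant genes. It was the lowest for 17 (17.7%), against 33.04% of the rest. Replicate 4 was the lowest for 35 genes (36.5%), against 17.7% of the rest, and the highest for 1 gene, against 16.1%. That gene was col-74. Replicate 1 was the highest for 23 genes (23.96%), against 13.6% of the rest. With each library centred, replicate 5 was still the highest for 43 genes. Larval tissue markers were low in replicate 5 as stated above, and their part in this pattern was not tested.

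The role groups differed in their profile over the embryo libraries. Of the 12 transcription factors, 10 were highest in replicate 5 and 8 lowest in replicate 2 (28.3% of the other abundant genes were lowest there), with a median difference of 0.61 (log2) between replicate 5 and the mean of the others. The exceptions at the high end were ces-2 and hnd-1. Of the 13 ubiquitin ligase parts, 7 were highest in replicate 1, 5 in replicate 5, and 10 were lowest in replicate 4. The 8 skr genes, close copies that are not independent, supplied 6 of the 7 and 7 of the 10. Of the other abundant genes, 13.6% were highest in replicate 1 and 37.8% in replicate 5. The shares lowest in replicates 4 and 5 were 17.7% and 33.04%. Of the 12 secreted and matrix genes, 6 were lowest in replicate 5, and their differences ran from -2.74 to 0.57. Of the 48 genes without a name, 24 were highest in replicate 5 and 20 lowest in replicate 4. The pathway lists, members and non-members together, went in different directions. Replicate 5 was the highest for 15 of the 21 genes in the T-box list and for 8 of 9 genes of sex determination. This compares with 37.8% of the other abundant genes, but only 4 of the 21 T-box genes reached a median of 30 FPKM. Replicate 5 was the highest for 1 of 22 eggshell genes, 3 of 14 other maternal RNA regulators and 0 of 14 larval tissue markers.

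**Figure D4:**
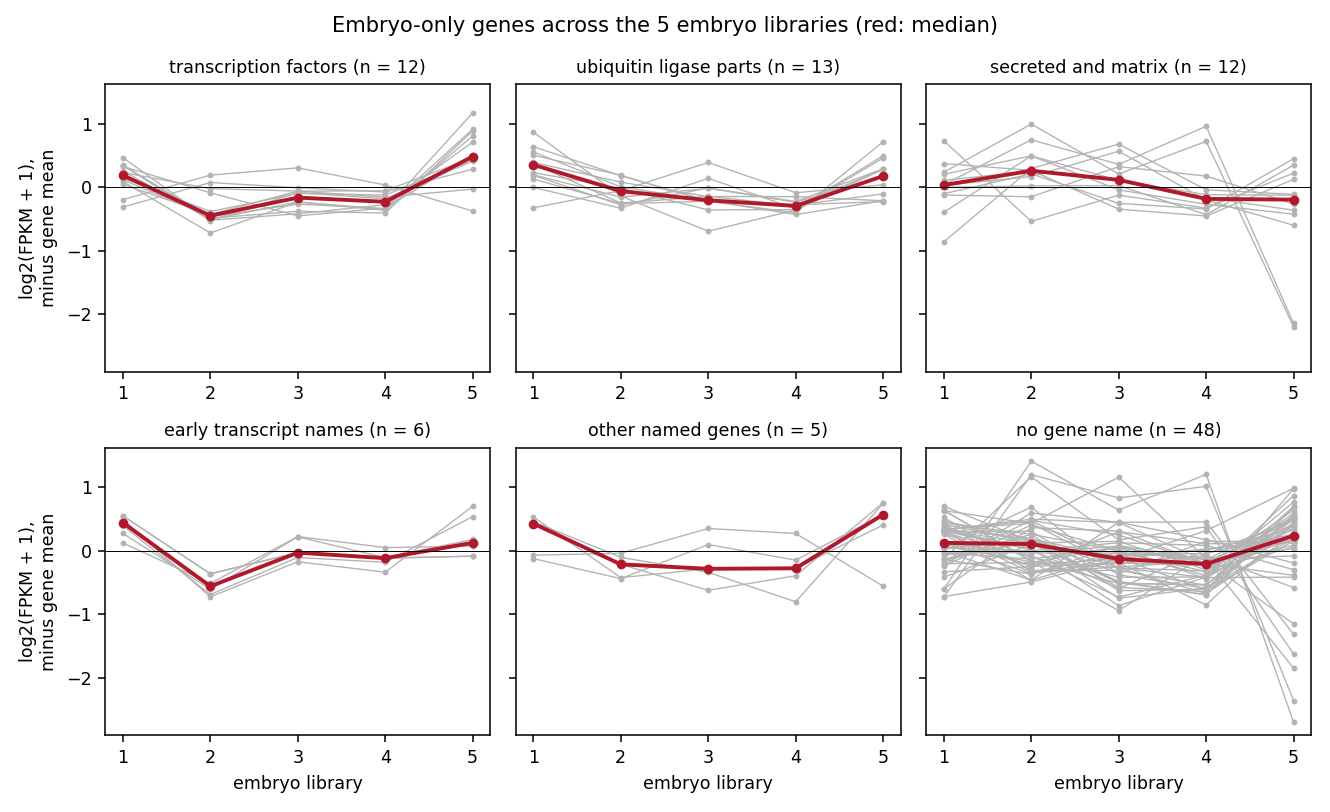
Profiles of the 96 embryo-only genes over the 5 embryo libraries by role. The y axis is log2(FPKM + 1) minus the mean of the gene, with each library also centred on its median over abundant genes. Each grey line is a gene and the red line the median. Libraries have no order, and lines only join values of a gene. Most transcription factors are highest in library 5, early transcript names are lowest in library 2, and 2 collagen genes drop in library 5.

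Embryo-only genes were unevenly placed on the chromosomes, with more on chromosome II. RefSeq placed 28 of the 96 genes (29.2%) on chromosome II, against 17.3% of the other abundant embryo genes and 17.4% of all genes. Chromosome III, which carries the kle-2 locus, held 7 (7.29%), against 18.6% of the other abundant genes and 13.2% of all genes. Chromosome V held 17 (17.7%), above the 15.3% of the other abundant genes but below the 25.2% of all genes. Chromosome I held 16 (16.7%), against 19.7% of the other abundant genes and 14.2% of all genes. Chromosome IV held 18 (18.75%), against 15.9% and 16.3%. The X held 10 (10.4%), against 13.2% of the other abundant genes and 13.7% of all genes. The share on chromosome II was 21.1% of the 57 genes left with an embryo median of at least 50 FPKM, and no test was made because neighbouring copies are not independent.

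**Figure D5:**
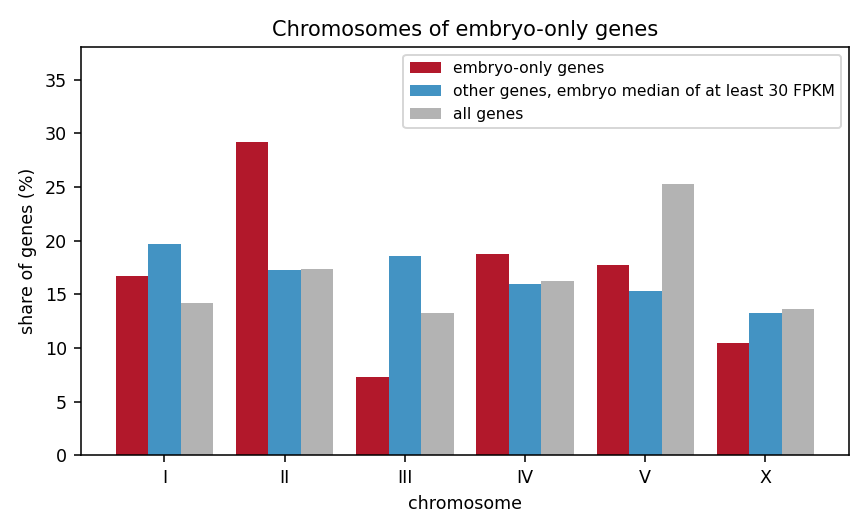
Share of genes on each chromosome. The y axis is the percentage of a gene set, for embryo-only genes (red), other genes with an embryo median of at least 30 FPKM (blue) and all genes (grey). Embryo-only genes have 29.2% on chromosome II and 7.29% on chromosome III.

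Some embryo-only genes were neighbours. In the RefSeq gene order, 24 embryo-only genes had another within 5 genes, in 10 groups, and 17 had one as the next gene. The largest group was skr-13, skr-9, skr-8 and skr-12 on chromosome IV, and skr-14 lay beside skr-7 on chromosome V. Chromosome I held the groups C35E7.5 with vet-2, ZK1053.4 with F44F1.6 and vet-6, and pes-2.1 with pes-2.2. Chromosome II held C08F1.11, C08F1.10 and C08F1.6, the pair F43G6.10 and F43G6.7, and the pair Y46G5A.7 and Y46G5A.8. The last groups were cpg-24 with Y41D4B.6, and ZK829.9 with T12G3.6, both on chromosome IV. Some neighbours shared their highest library. C08F1.11, C08F1.10 and C08F1.6 were all highest in replicate 5, as were F43G6.10 and F43G6.7.

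The comparison of homozygous with heterozygous kle-2 larvae asked how loss of zygotic KLE-2 affects transcript levels, here those of genes near 0 in larvae. kle-2 RNA was 3.54, 4.24 and 6.59 FPKM in homozygous larvae (4.79 ± 1.60, SD, n = 3), against 7.83, 10.0 and 12.8 FPKM in heterozygous larvae (10.2 ± 2.50, SD, n = 3). The groups did not overlap, and the log2 difference was -0.97 (SE 0.29, limma adjusted p = 0.46). With the replicate number as a block it passed the test (limma adjusted p = 0.038).

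No embryo-only gene passed the test between homozygous and heterozygous larvae. Of the 96 genes, 89 had a value above 0 in at least 1 larval library and were tested. In limma on log2(FPKM + 1), 0 of the 89 passed an adjusted p of 0.05, against a background of 0.016% of all genes tested (3 of 18741, all lower in homozygous larvae). The 3 genes called were C32H11.9, C32H11.10 and Y46G5A.27, none of them embryo-only. The paper compared the same genotypes with DESeq2 and reported far more genes, most of them increased in homozygous larvae. The 3 calls belong to this fit on FPKM without a block and do not count the genes that differ between the genotypes. With the replicate block 0 of the 89 passed as well, against 2.98% of all genes (558 of 18741). At an unadjusted p under 0.05, 5 of the 89 (5.62%) were past the threshold, against 7.56% of all genes. With the block 11 were past it (12.4%), against 19.6% of all genes. The smallest adjusted p was 0.35, and 0.072 with the block. The log2 differences ran from -0.53 to 0.38 with a median of 0.01, and 46 were above and 43 below 0. Over all genes the median was 0.00. On this scale a change of a gene near 0 FPKM is understated, and changes at such levels are poorly measured at this depth. The rule also held these same larval values under 1 FPKM, so large differences were excluded before the test. The counts and the range of differences therefore cannot show whether members respond less than other genes.

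The members farthest apart went in both directions. col-165 had 0, 0 and 0.142 FPKM in homozygous larvae and 0.336, 0.373 and 0.891 FPKM in heterozygous larvae. Its log2 difference was -0.53 (SE 0.15, limma adjusted p = 0.41, and 0.072 with the block). dsl-3 had 0.156, 0.196 and 0.181 FPKM in homozygous larvae and 0.429, 0.635 and 0.911 FPKM in heterozygous larvae (-0.48, SE 0.12, limma adjusted p = 0.35, and 0.11 with the block). In both genes every homozygous library lay below every heterozygous one. col-74, the other abundant collagen, lay the opposite way, with 0.585, 0.880 and 0.474 FPKM in homozygous larvae and 0.321, 0.297 and 0.171 FPKM in heterozygous larvae (0.38, SE 0.12, limma adjusted p = 0.50, and 0.14 with the block). T05D4.2 had 0.322, 0.270 and 0.560 FPKM in homozygous larvae and 0.0738, 0.164 and 0.0784 FPKM in heterozygous larvae (0.32, SE 0.10, limma adjusted p = 0.49). None of the differences passed the test, and all of these values are under 1 FPKM.

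In total, 8 of the 89 tested members (8.99%) had 3 homozygous libraries all on one side of the 3 heterozygous ones, against 11.2% of all genes tested. In 5 of the 8 the homozygous libraries were higher. The share is close to the background and is no result about embryo-only genes. Among the pathway lists, 0 of 19 Skp1-related, 0 of 14 T-box and 0 of 11 Notch genes tested passed an adjusted p of 0.05 in either direction, with or without the block in limma. At an unadjusted p under 0.05 the counts were 0, 1 and 1 without the block and 2, 1 and 1 with it, where 19.6% of all genes were past that threshold. The medians of these lists were 0.03, -0.01 and -0.05 (log2), against 0.00 over all genes. With the block, calls were made in 5 of the other lists. Higher in homozygous larvae were gld-1 and mex-3 (2 of 14 maternal RNA regulators) and act-1 and ubq-2 (2 of 16 housekeeping genes). unc-64 was higher too (1 of 14 larval tissue markers). Lower were lin-26 (1 of 11 epidermal fate genes) and noah-1 and lpr-3 (2 of 12 apical matrix genes). The cuticle collagens dpy-7, dpy-13 and rol-6 were lower too (3 of 14 larval tissue markers). Without the block none of these genes passed, and with it 2.98% of all genes were called. The neuron markers rab-3 and snb-1 differed by -0.26 and 0.04 (log2), against 0.83 for unc-64. Some larval tissue markers thus differed between genotypes only in the fit with the block, and their part in the values above was not tested. The summed level of all 14 larval tissue markers, given above, overlapped between homozygous and heterozygous larvae.

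The number of larval values at 0 was highest in the library with the lowest depth. Homozygous replicate 1, with the lowest relative depth (0.695), had 52 of the 96 genes at 0, and homozygous replicates 2 and 3 (1.11 and 1.20) had 31 and 36. Heterozygous replicates 1, 2 and 3 (1, 1.37 and 0.953) had 35, 32 and 46. Over all genes the share at 0 was 23.1%, 17.2% and 18.4% in homozygous larvae and 19.9%, 17.8% and 21.3% in heterozygous larvae. The numbers of zeros overlapped between the genotypes, and a gene listed at 0 was not detectable at this depth rather than absent.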

How the data were processed

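RNA-seq of 3 homozygous and 3 heterozygous kle-2 larval samples and of 5 wild-type embryo samples was analysed. The authors aligned stranded single-end reads to WS220 with tophat and deposited FPKM values from Cufflinks 2.0.2, in separate tables for larvae and embryos. Read counts were not used here and depth is known only as a ratio between libraries of a table, so values near 0 have no interval. Because the tables were normalized separately, no fold change or test was made between stages. ChIP-seq peak lists were not used.

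Of the larval values, 2 repeated rows were dropped. Names, chromosomes and gene order came from RefSeq (WBcel235), which matched 96 of 96 members and 19878 of 20376 genes. Coordinates and sequences were not used because the build differs. Homozygous and heterozygous larvae were compared with limma 3.58.1 (R 4.3.3), after adding 1 to each FPKM value and taking log2, over genes above 0 in at least 1 larval library, with a trend, no block and Benjamini-Hochberg adjustment over 18741 genes at 0.05. The fit was tested on simulated data in which only genes with a mean log2(FPKM + 1) of at least 1 were changed. No embryo-only gene reaches that level in larvae, so the simulation says nothing about the members. Other steps used Python 3.11.15, pandas 2.3.3 and numpy 2.4.6. Labels do not state whether replicates were separate cultures, so p-values measure only the spread between these samples.

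Deviations from the group means of libraries with the same replicate number correlated at 0.44, 0.55 and 0.62, and those with different numbers at -0.48 to -0.02. The numbers were therefore taken to pair the libraries in the fit with the replicate block. The main fit did not use this pairing. It called 3 genes, against 558 with the block, so both fits are given. This comes from the values and not from the labels.

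Members, lists and tests were chosen with earlier results of these data known. Genes named were the 15 highest by embryo median, those in pathway lists, those at the thresholds, the 5 widest and 5 narrowest ratios between embryo libraries, families of at least 3 members and any called gene. Further names, the role groups and the members farthest apart between genotypes were chosen after values were seen. Alternatives were other thresholds, pseudocounts, filters, scalings, the replicate block and leaving out each library.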

Additional observations from a re-analysis of the deposited data

Results flagged for a closer look

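Among the 96 embryo-only genes, 2 (2.08%) had an embryo library far from the other 4 by Dixon's test, which by chance picks about 1 in 20 groups. nhr-2, a nuclear receptor of early embryos, had 166 FPKM in embryo replicate 5, the highest library, against 40.9 to 76.0 FPKM in the other embryo libraries. skr-8, a Skp1-related gene, had 213 FPKM in embryo replicate 1, the highest library, against 111 to 139 FPKM in the others.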

How the results depend on the processing

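The number of embryo-only genes depended on the thresholds. It was 149 at an embryo median of at least 20 FPKM, 57 at 50 FPKM and 59 at under 0.5 FPKM in larvae, against 96, and 96 to 112 with any library left out. The count on chromosome II was 49, 12 and 18 under these thresholds, 18 with every embryo library at 30 FPKM or more, and 27 to 36 with a library left out, against 28. The skr genes numbered 7 or 8 throughout. Over all genes, calls between homozygous and heterozygous larvae numbered 558 with the replicate block, 15 at a mean of at least 1 FPKM, 16 with a pseudocount of 0.1 and 9 with quantile normalization, against 3, and 1 with no trend. Leaving out a library gave 0 to 11 calls, with 0 without homozygous replicate 1 or 2 or heterozygous replicate 1 or 2 (1068 to 1304 at an unadjusted p under 0.05 in limma), 11 without heterozygous replicate 3 and 3 without homozygous replicate 3. The cause was not tested. Leaving out a library leaves 2 samples in that group. No member was called under any alternative with members to test, and none could pass the filter of 1 FPKM. The median SD over embryo libraries was 0.36 without replicate 5 and 0.44 without replicate 3, the lowest and highest values, against 0.40. Promoter motifs were not run. A filter of 1 FPKM in larvae limits any statement on members to levels near the smallest that this depth can show.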

Other observations

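Several T-box genes had the shape of the embryo-only genes at lower embryo levels. tbx-33 had at most 0.206 FPKM in larvae and 28.9, 13.9, 18.1, 16.4 and 41.5 FPKM in embryos. tbx-43 had at most 0.0789 FPKM in larvae and 19.5, 13.47, 17.96, 14.2 and 32.7 FPKM in embryos. tbx-38 had at most 0.0767 FPKM in larvae and 9.59, 4.45, 6.44, 8.40 and 16.5 FPKM in embryos. In each, replicate 5 was the highest and replicate 2 the lowest. xol-1, the master switch of sex determination, had at most 0.0985 FPKM in larvae and 4.67, 2.33, 2.75, 2.19 and 8.73 FPKM in embryos. These genes were chosen after their values were seen.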
